A study of Mus musculus with 4 samples.

Results

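The genes of the signalling system that makes osteoclasts and of the parathyroid hormone-related protein (PTHrP) pathway were followed through the cells of the mouse molar and its surroundings. They were taken by symbol, and all 9 were found once among the 32285 genes of the count tables: Tnfsf11, Tnfrsf11b, Tnfrsf11a, Csf1, Csf1r, Pthlh, Pth1r, Acp5 and Ctsk. Osteoclasts are multinucleated cells of the macrophage lineage that resorb bone. RANKL, the product of Tnfsf11, is made by stromal and osteoblast-lineage cells and binds RANK, the product of Tnfrsf11a, on macrophage-lineage precursors, while osteoprotegerin, the product of Tnfrsf11b, is a secreted decoy that captures RANKL. CSF1 acts through CSF1R to keep the precursors alive and dividing. PTHrP, the product of Pthlh, acts through PTH1R, a receptor that in osteoblasts and other stromal cells raises RANKL and lowers osteoprotegerin. Around a tooth, resorption by osteoclasts enlarges the bony crypt and later opens the path of eruption, and PTHrP signalling in the dental follicle is known to be needed for normal eruption.

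Single cells were profiled in 4 libraries, the maxillary and the mandibular molar at an embryonic (E15.5) and a postnatal (P1) stage, named by the day. The mice were C57BL/6J wild type animals of either sex (genotype WTB6 in the labels) with no treatment, the embryonic day stands in the labels without its decimal, and each library came from 6 pooled molar tooth organs with the tissue around them. With 1 library per stage and jaw, differences between stages or jaws were not tested. A stage difference could be seen in both jaws, and a jaw difference at both stages, but no model with the jaws or stages as replicates was fitted. A level is the summed count of unique molecular identifiers (UMIs, tags that each mark 1 captured RNA molecule) of a gene in a class of cells per 1000000 UMIs of that class (CPM), with an exact 95% Poisson interval in brackets. The intervals of levels, ratios and shares cover counting error only.

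Total UMIs were 109723360 for E15.5 maxillary, 86659227 for E15.5 mandibular, 128812956 for P1 maxillary and 139873101 for P1 mandibular. The P1 libraries stood apart from the E15.5 libraries in one respect that touches every P1 value. They shared 7131 barcodes (38.1% of P1 maxillary, 36.8% of P1 mandibular), where the other pairs shared 28 to 70. The median depth of a shared barcode was 12088 UMIs in P1 maxillary and 2870 UMIs in P1 mandibular. They were dropped from the P1 mandibular library and kept in the P1 maxillary library. Which library these cells came from is not known, and P1 jaw differences rest on this choice. After this, a minimum of 1000 UMIs and removal of likely doublets, 9261, 6529, 14717 and 9301 cells were left in the order E15.5 maxillary, E15.5 mandibular, P1 maxillary and P1 mandibular, with median UMIs of 9365, 11056, 3795 and 10185. In P1 maxillary, shared barcodes made up 98.0% of the papilla-like, 97.0% of the osteoblast- or odontoblast-like, 94.3% of the ameloblast-like, 44.6% of the follicle-like (cluster 6, below) and 25.2% of the macrophage-like cells, so its dental tissue classes rest largely on them. For some P1 maxillary values, those of shared and of other barcodes are given apart. Only 60 papilla-like and 10 osteoblast- or odontoblast-like cells had barcodes of their own, so the values of these classes are nearly those of shared barcodes.

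Clustering left out the 9 genes, and the marker lists that gave clusters their names do not include them. The names carry the suffix -like because they were rebuilt from the counts. Mesenchyme-like cells numbered 5464, 2404, 7682 and 4940 in the same order of libraries, epithelium-like cells 869, 124, 2076 and 1718, and macrophage-like cells 279, 203, 302 and 193. The markers bore out most names: all 9 macrophage markers were at 10 CPM or more in the macrophage-like cells of each library, and 7 of 9 papilla markers at E15.5 and 8 of 9 at P1 were in the papilla-like cells. The papilla-like cells of P1 maxillary include cluster 10 (460 of 2947 cells), which has no papilla marker and 1 follicle marker among its 10 leading genes, and its level is given apart for Pthlh. The P1 clusters named follicle-like, cluster 6 in maxillary and cluster 25 in mandibular, carried 8 of 8 and 6 of 8 follicle markers, but also osteoblast markers, with Runx2 at 2560 and 2848 CPM. The name goes against the leading genes of cluster 6, whose first 10 hold the osteoblast markers Ibsp and Runx2 and, of the follicle markers, only Bmp3, so it is called by its number below. In E15.5 mandibular, cluster 7 makes up 263 of the 475 cells named osteoblast-like. Among its 10 leading genes it has more chondrocyte markers (Col2a1, Acan and Col9a1) than osteoblast markers (Ibsp and Ifitm5). Cluster 13 is the osteoblast-like part of that class. The Tnfsf11, Pthlh and Pth1r levels of the class are also given by cluster. Its other levels, among them Csf1, Vdr and Cxcl12, and its shares of cells with a UMI join both clusters. At P1, clusters with both osteoblast and odontoblast markers were left as osteoblast- or odontoblast-like, and P1 maxillary had no cluster that was osteoblast-like alone. These names moved with the settings. P1 maxillary had 626 osteoblast-like cells with doublets kept, 837 under a filter on mitochondrial percentage and genes, and 422 at a finer clustering. E15.5 mandibular had none with doublets kept, P1 mandibular had none under that filter, and no P1 cluster was follicle-like with doublets kept. The papilla-like name was also lost, in P1 maxillary without the shared barcodes and in E15.5 mandibular with doublets kept. Erythroid-like cells, which should lack all 9 transcripts, served as the background for free RNA. The plot of levels by class gives each gene in each library.

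**Figure D1:**
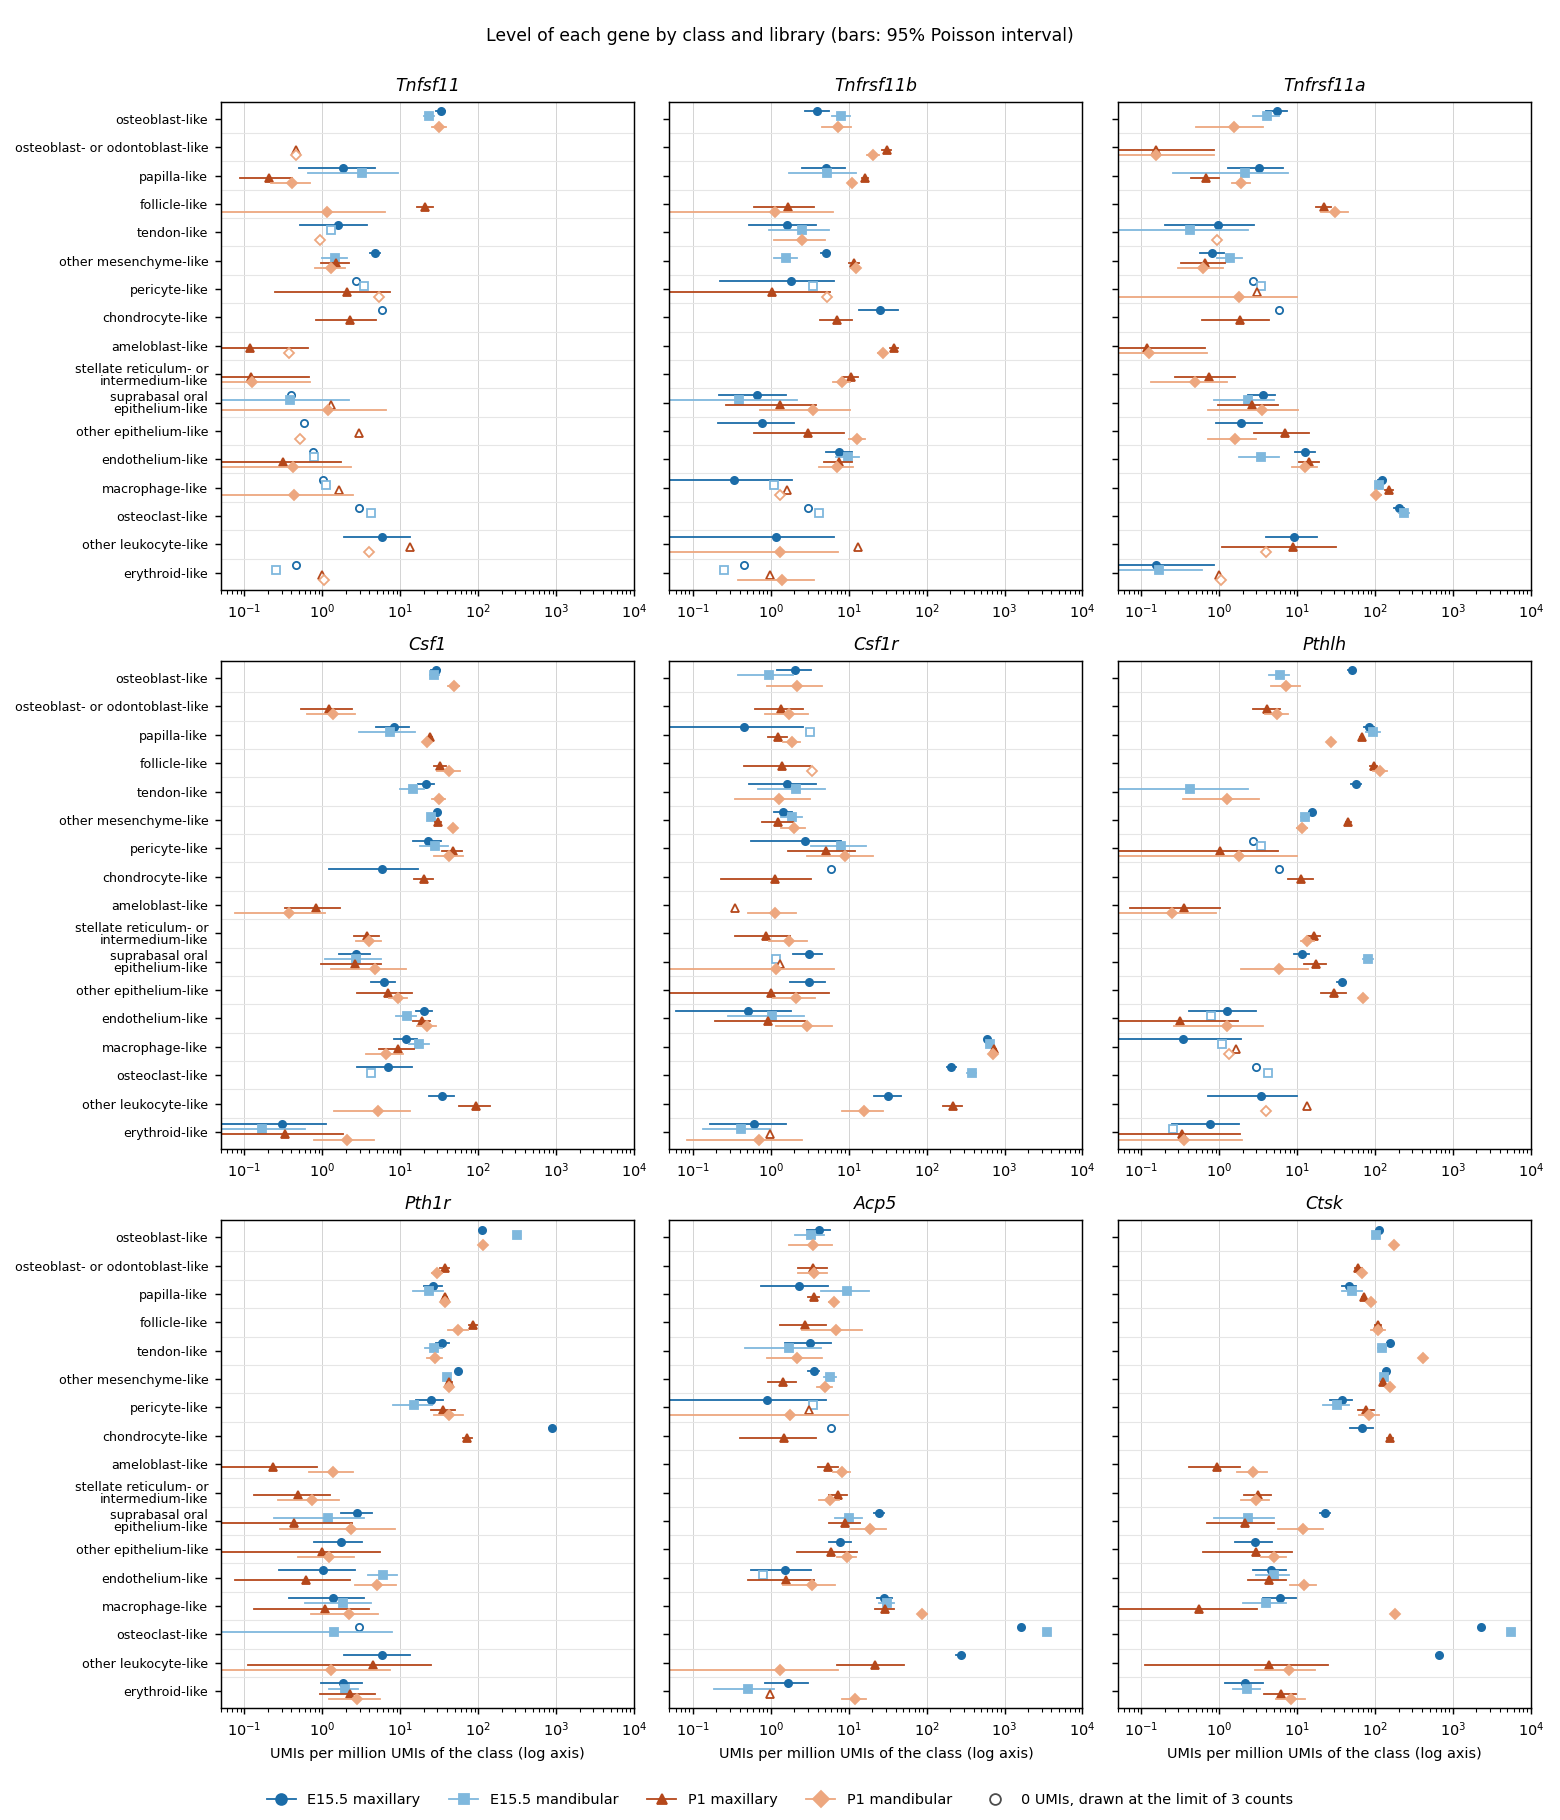
Each panel plots the level of 1 gene (UMIs per 1000000 UMIs of the class, log axis) in each class of cells, with 1 symbol per library and bars for the 95% Poisson interval; open symbols mark 0 UMIs and are drawn at the limit of 3 counts. Tnfsf11 was highest in osteoblast-like cells (and at P1 in maxillary in cluster 6, drawn as follicle-like), Tnfrsf11b at P1 in ameloblast-like and osteoblast- or odontoblast-like cells, Csf1r in macrophage-like cells, and Acp5 and Ctsk in the osteoclast-like cells of E15.5.

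Tnfsf11 (ENSMUSG00000022015, chr14:78277445-78308043 of mm10, minus strand), the RANKL ligand, was concentrated in osteoblast-like cells. Osteoblast-like cells had 32.9 CPM [29.1, 37.0] at E15.5 in maxillary (274 UMIs in 886 cells), 23.6 CPM [20.2, 27.4] at E15.5 in mandibular (175 UMIs in 475 cells) and 31.4 CPM [25.5, 38.1] at P1 in mandibular (100 UMIs in 342 cells). These were the highest levels among the named classes of their libraries. The E15.5 mandibular value joins unlike clusters, with 50.2 CPM [42.4, 59.1] in the 212 cells of cluster 13 and 6.63 CPM [4.48, 9.47] in the 263 cells of cluster 7. The intervals of the E15.5 maxillary and the P1 mandibular level overlapped. Against the other mesenchyme-like cells of the same library, which had 4.74, 1.46 and 1.29 CPM, osteoblast-like cells were 6.93-fold [5.76, 8.35], 16.2-fold [11.1, 24.3] and 24.2-fold [15, 40.8] higher. They held 9.57%, 7.28% and 3.68% of the cells and 55.4%, 71.7% and 68.0% of all Tnfsf11 UMIs.

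In P1 maxillary cluster 6 had 21.0 CPM [16.5, 26.3] from 76 UMIs, 60.8% of the Tnfsf11 UMIs of the library in 4.17% of its cells. The follicle-like cells of P1 mandibular, cluster 25, had a single UMI (1.14 CPM). The clusters shared Bmp3, Ibsp and Igfbp5 among their 10 leading genes, while Mmp13, Runx2 and Pdzrn4 were among those of the maxillary cluster only, so they may hold different cells and no jaw difference is read from them. Within cluster 6 the cells with barcodes of their own had 38.8 CPM and those with shared barcodes 15.3 CPM, so the transcript was present in both. When cells were clustered again without the shared barcodes, the class of P1 maxillary named follicle-like had 4.15 CPM in 689 cells. At the level of single clusters, the 5 highest were E15.5 mandibular cluster 13 (50.2 CPM, led by Mmp13, Spp1 and Pdzrn4), E15.5 maxillary cluster 4 (42.0 CPM, led by Spp1 and Mmp13), P1 mandibular cluster 10 (31.4 CPM, led by Mmp13, Pdzrn4 and Spp1), cluster 6 of P1 maxillary (21.0 CPM, led by Bmp3, Pdzrn4 and Ibsp) and E15.5 maxillary cluster 10 (20.4 CPM, led by Ibsp, Tnn and Ostn). Mmp13, the collagenase of bone and cartilage, was thus a leading gene of the 3 clusters with most Tnfsf11, and was also among those of cluster 6 of P1 maxillary.

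A weaker source of Tnfsf11 lay outside the osteoblast-like cells. Clusters of other mesenchyme-like cells with Pappa2 and Itgbl1 among their leading genes had 16.6 CPM in E15.5 maxillary (701 cells), 10.4 CPM in E15.5 mandibular (236 cells) and 8.12 CPM in P1 maxillary (368 cells). Papilla-like cells had 1.83, 3.19, 0.206 and 0.410 CPM in the order E15.5 maxillary, E15.5 mandibular, P1 maxillary and P1 mandibular. No UMI was seen in the 333 and 359 osteoblast- or odontoblast-like cells of P1, which allows a level of up to 0.457 CPM in maxillary and 0.463 CPM in mandibular, nor in the erythroid-like cells of any library. Epithelium-like cells had 0, 0.389, 0.0997 and 0.0880 CPM, and macrophage-like cells had 1 UMI in the 4 libraries together.

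Few single cells carried the transcript. The share of osteoblast-like cells with a Tnfsf11 UMI was 16.0% [13.7, 18.6] in E15.5 maxillary, 20.2% in E15.5 mandibular and 12.6% in P1 mandibular, at median depths of 9088.5, 13477 and 9142.5 UMIs, and 0% in erythroid-like cells of the same libraries at 7901, 7460 and 6807 UMIs. With each cell thinned to 2000 UMIs, which left out 50, 23 and 25 shallower cells, the shares were 4.31%, 4.87% and 5.05%. The order of the libraries changed with thinning, so no order of shares was read.

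Tnfrsf11b (ENSMUSG00000063727, chr15:54250619-54278484, minus strand), the decoy receptor for RANKL, was higher at P1. Its highest levels among the named classes were in ameloblast-like cells, named for the enamel-forming epithelium. These cells had 38.0 CPM [33.9, 42.3] in maxillary (325 UMIs in 680 cells) and 27.6 CPM [24.1, 31.4] in mandibular (222 UMIs in 667 cells). Osteoblast- or odontoblast-like cells followed with 30.8 CPM [26.7, 35.3] and 20.5 CPM [17.2, 24.3], and in each jaw the intervals of these classes overlapped. Papilla-like cells came lower, with 16.2 and 11.1 CPM, and erythroid-like cells had 0 UMIs in maxillary and 1.40 CPM in mandibular. All 325 maxillary UMIs of the ameloblast-like cells lay in shared barcodes, while the mandibular value rests on no shared barcode. The maxillary class joins cluster 8 (465 cells, led by Vwde, Igfbpl1 and Col22a1) with cluster 27 (215 cells, led by Amelx and Enam). Enam and Amelx also led the mandibular class, but neither was among the leading genes of cluster 8. The maxillary level is given here for both clusters together, so it is not assigned to enamel-forming cells alone.

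At E15.5 no cluster was ameloblast-like or osteoblast- or odontoblast-like, and Tnfrsf11b was low in the epithelium- and papilla-like cells. Of the epithelium-like cells, 54.5% in maxillary and 100% in mandibular were suprabasal oral epithelium-like. Their levels are therefore not read as those of dental epithelium. Epithelium-like cells had 9 UMIs in maxillary (0.707 CPM) and 1 UMI in mandibular (0.389 CPM), and papilla-like cells had 5.04 and 5.32 CPM. Endothelium-like cells had 7.61, 9.70, 7.44 and 7.12 CPM, with intervals that overlapped between all 4 libraries. The highest single value of E15.5, 25.4 CPM in chondrocyte-like cells, rests on 13 UMIs in 19 cells. The stellate reticulum- or intermedium-like cells of P1, the inner support layers of the enamel organ, had 10.6 and 8.15 CPM, below the ameloblast-like cells in both jaws.

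The share of ameloblast-like cells with a Tnfrsf11b UMI was 27.8% in maxillary and 23.1% in mandibular, at median depths of 12494.5 and 12609 UMIs, and 6.88% and 3.82% after thinning. In erythroid-like cells it was 0% and 0.665%, at 1927 and 6807 UMIs. Mesenchyme still gave most of the P1 transcript: 69.0% and 60.5% of all Tnfrsf11b UMIs came from mesenchyme-like and 27.9% and 30.8% from epithelium-like cells. Papilla-like cells alone gave 42.0% and 29.7%, and ameloblast-like cells 21.7% and 18.8%. Other mesenchyme at P1 held strong clusters as well, 44.6 CPM in maxillary cluster 25 (led by Dab1, Tfap2b and Tnr) and 24.0 CPM in mandibular cluster 3 (led by Ly6a, Mfap5 and Dpt, genes of fibroblasts).

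The Tnfsf11 share of the summed Tnfsf11 and Tnfrsf11b UMIs set ligand and decoy against each other within a class. The counts are taken from the 3' ends of transcripts and the genes may be captured unequally, so the share was compared between classes and not read as a ratio of proteins. Osteoblast-like cells had 89.3% in E15.5 maxillary, 74.8% in E15.5 mandibular and 81.3% in P1 mandibular, and cluster 6 of P1 maxillary 92.7%. In E15.5 mandibular, cluster 13 had 145 UMIs of Tnfsf11 and 12 of Tnfrsf11b, and cluster 7 had 30 and 47. In osteoblast- or odontoblast-like cells it was 0 of 202 UMIs in P1 maxillary and 0 of 133 in P1 mandibular, and in papilla-like cells of P1 1.26% and 3.57%. Ameloblast-like cells had 0.31% in maxillary and 0% in mandibular. The plot of this share by class shows the osteoblast-like classes and cluster 6 of P1 maxillary near the top and the papilla-, ameloblast- and osteoblast- or odontoblast-like classes of P1 near 0.

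**Figure D2:**
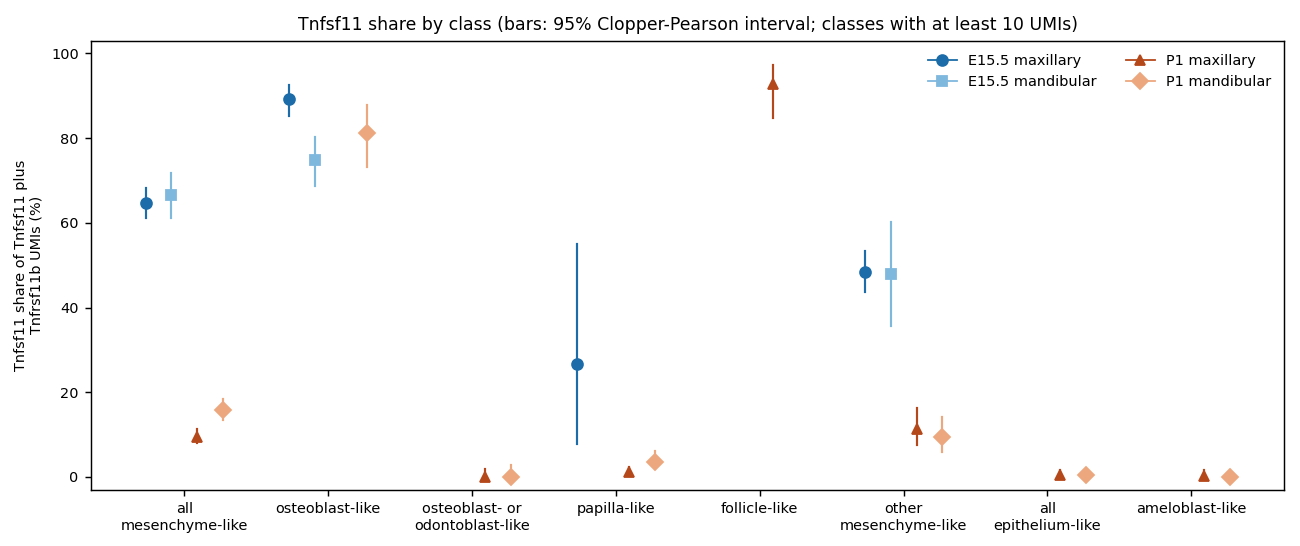
The share of Tnfsf11 in the summed Tnfsf11 and Tnfrsf11b UMIs (percent, vertical axis) is plotted by class for each library, with 95% Clopper-Pearson bars, for classes with at least 10 such UMIs. Osteoblast-like cells sit between 74.8% and 89.3%, and mesenchyme-like cells as a whole at 64.7% and 66.6% at E15.5 against 9.55% and 15.9% at P1. The 74.8% is that of E15.5 mandibular, where the class joins cluster 13 with cluster 7, led by chondrocyte markers. The 66.6% leaves out the unnamed cluster 2 of E15.5 mandibular, and was 54.6% with that cluster kept in its class.

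Across the mesenchyme-like cells as a whole, the balance of these genes differed between the stages. Tnfsf11 stood at 8.61 CPM [7.86, 9.41] in E15.5 maxillary, 6.32 CPM in E15.5 mandibular, 1.66 CPM in P1 maxillary and 2.19 CPM in P1 mandibular, both E15.5 libraries above both P1 libraries. The level at P1 was 5.20-fold lower in maxillary (log2 -2.38 [-2.69, -2.08]) and 2.89-fold lower in mandibular (-1.53 [-1.85, -1.21]). Tnfrsf11b stood at 4.70, 3.18, 15.7 and 11.6 CPM, both P1 libraries above both E15.5 libraries. It was 3.34-fold higher at P1 in maxillary (1.74 [1.54, 1.94]) and 3.65-fold higher in mandibular (1.87 [1.57, 2.18]). The E15.5 mandibular mesenchyme-like cells leave out cluster 2 (585 cells, led by Mfap5, Wnt2 and Gap43), which stayed unnamed. P1 mandibular cluster 3, also with Mfap5, Wnt2 and Gap43 among its leading genes, is included. With clusters led by rival markers kept in their class, the mandibular Tnfrsf11b ratio was 1.37 [1.14, 1.61]. The Tnfsf11 share was 64.7% [61.2, 68.1] and 66.6% [61.1, 71.7] at E15.5 and 9.55% [7.91, 11.4] and 15.9% [13.5, 18.5] at P1. Without the shared barcodes the P1 maxillary share was 45.7%. With cluster 2 kept in its class, the E15.5 mandibular share was 54.6% [49.6, 59.4].

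The make-up of the mesenchyme-like cells moved with the stage. Osteoblast-like cells were 886 of 5464 and 475 of 2404 at E15.5, and 0 of 7682 and 342 of 4940 at P1, while papilla-like cells were 250 and 81 at E15.5 against 2947 and 2348 at P1. Of the 475 cells, 212 were in cluster 13 and 263 in the cluster led by chondrocyte markers. The osteoblast-like counts moved with the settings, as given above, so no change in the share of osteoblast-like cells is read from them. The papilla-like counts also moved with the settings. Tnfsf11 in the osteoblast-like cluster 13 of E15.5 mandibular (50.2 CPM) stood above that in the osteoblast-like cells of P1 mandibular (31.4 CPM), and their intervals did not overlap. Within papilla-like cells Tnfrsf11b was 1.68 higher on the log2 scale at P1 in maxillary and 1.05 [-0.18, 2.69] higher in mandibular. Whether the stage difference reflects more of 1 cell type or more RNA per cell was not tested. Over all kept cells of a library, with no naming of clusters, Tnfsf11 had 5.22, 3.10, 1.18 and 1.45 CPM and Tnfrsf11b 3.41, 2.89, 14.1 and 11.7 CPM. Without the shared barcodes the P1 maxillary values were 2.54 CPM for Tnfsf11 and 3.67 CPM for Tnfrsf11b, and the stage differences in the mesenchyme-like cells of maxillary shrank to log2 -0.68 and 0.45. The P1 mandibular library holds no shared barcode, and its differences from E15.5 stand without them, but with doublets kept no cluster of E15.5 mandibular was osteoblast-like and the mandibular difference of Tnfsf11 was log2 -0.05.

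In epithelium-like cells Tnfrsf11b was 29.5-fold higher at P1 than at E15.5 in maxillary (log2 4.88 [3.94, 6.02]) and 41.2-fold higher in mandibular (5.36 [2.88, 10.67]), the latter against a single UMI at E15.5. The E15.5 epithelium-like cells held no ameloblast-like cluster, and those of E15.5 mandibular were 124 cells, all suprabasal oral epithelium-like. At P1 the level in epithelium-like cells (20.8 and 16.0 CPM) was higher than in mesenchyme-like cells (15.7 and 11.6 CPM), where at E15.5 it had been lower. In P1 maxillary the epithelium-like cells with shared barcodes had 23.2 CPM and the others 2.62 CPM, and without the shared barcodes the level of that library was higher in mesenchyme-like cells, by log2 1.42.

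A common rule was applied to all genes to set these differences in context: a gene was called where the higher group reached 50 CPM and the difference was at least 2-fold the same way in both jaws, or at both stages for the jaw comparison. In mesenchyme-like cells 5.67% of 3848 genes were called higher and 1.72% lower at P1, in epithelium-like cells 7.12% and 3.19% of 3860, and in macrophage-like cells 0.287% and 0.401% of 3488. Without the shared barcodes these shares were 0.25% and 0.139% of 3594 in mesenchyme-like, 1.81% and 0.537% of 3539 in epithelium-like and 0.0876% and 0.0292% of 3426 in macrophage-like cells. Between the jaws, 0.718% of 3482 genes were called higher and 0.345% lower in maxillary mesenchyme-like cells. None of the 9 genes was called in any of these comparisons, in which at most 2 of them reached the 50 CPM minimum. With a minimum of 10 CPM, Tnfrsf11b was called higher at P1 in mesenchyme-like cells, as were 4.77% of 9731 genes, and in epithelium-like cells, as were 5.48% of 9675. Pthlh was called lower at P1 in epithelium-like cells, as were 3.89% of genes, and higher in maxillary mesenchyme-like cells, as were 0.719% of 9323. Of these differences, 3 did not reach 2-fold without the shared barcodes, with log2 0.45 for Tnfrsf11b in maxillary mesenchyme-like cells, 0.23 for the Pthlh jaw ratio at P1, and 22.2 CPM of Pthlh against 22.1 CPM in the epithelium-like cells of maxillary. Tnfrsf11b in the epithelium-like cells of P1 maxillary with barcodes of their own was 2.62 CPM, under that minimum.

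**Figure D3:**
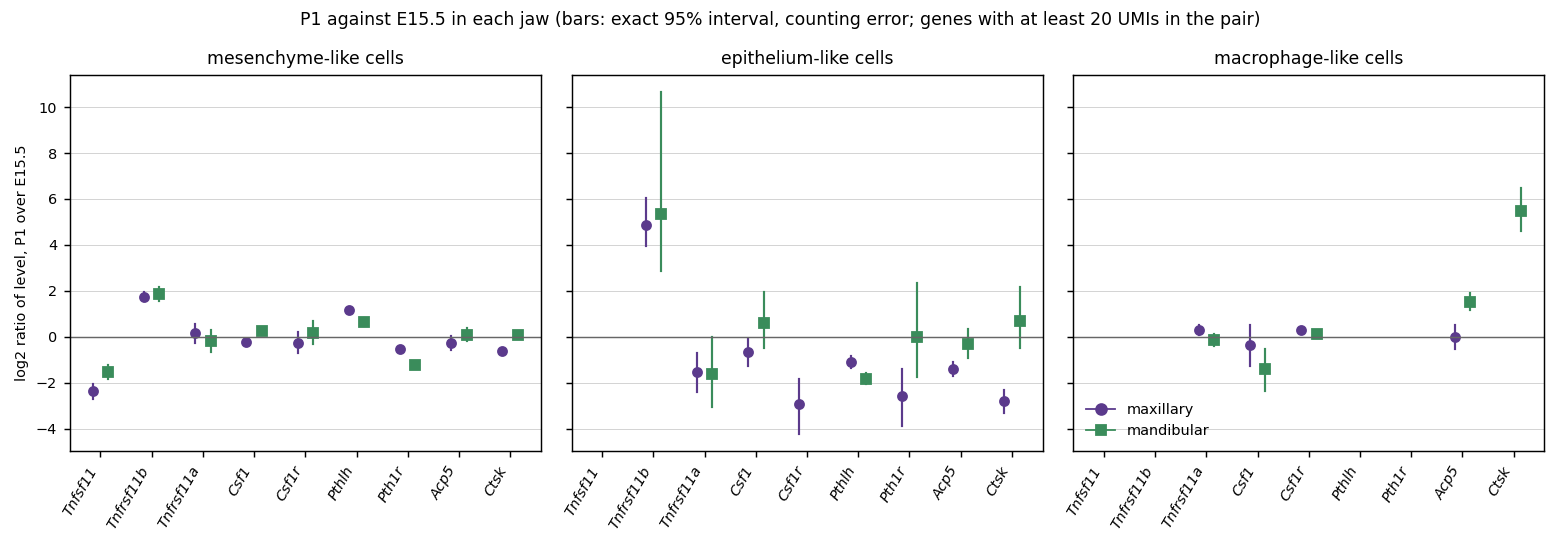
The log2 ratio of the level at P1 over E15.5 (vertical axis) is plotted for each gene in mesenchyme-, epithelium- and macrophage-like cells, by jaw, with exact 95% bars for counting error and only genes with at least 20 UMIs in the pair. In mesenchyme-like cells Tnfsf11 lies below 0 and Tnfrsf11b and Pthlh above 0 in both jaws (Pthlh at -0.16 in maxillary without the shared barcodes), Tnfrsf11b in epithelium-like cells lies at 4.88 and 5.36, and Tnfrsf11a and Csf1r in macrophage-like cells lie within 0.30 of 0.

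The receptors marked the receiving cells. Csf1r (ENSMUSG00000024621), the receptor for CSF1 and IL34, had 591 CPM [563, 619] in the macrophage-like cells of E15.5 maxillary, 643 CPM in E15.5 mandibular, 726 CPM in P1 maxillary and 702 CPM in P1 mandibular. The mesenchyme-like cells of the same libraries had 1.51, 1.62, 1.26 and 1.83 CPM, and the log2 ratios between these classes were 8.61, 8.64, 9.17 and 8.58. Between 81.0% and 89.3% of all Csf1r UMIs of a library came from macrophage-like cells. A Csf1r UMI was found in 89.2%, 89.2%, 77.8% and 88.6% of them, at median depths of 9585, 12975, 3037 and 10816 UMIs. After thinning to 2000 UMIs these shares were 60.4%, 67.0%, 69.9% and 63.9%, and in erythroid-like cells no unthinned share was above 0.474%.

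Tnfrsf11a (ENSMUSG00000026321, chr1:105780718-105847981, plus strand), the gene for RANK, followed Csf1r into the macrophage-like cells, with 123 CPM [111, 136], 114 CPM [102, 127], 150 CPM [133, 169] and 104 CPM [90.7, 118]. Its stage ratios there were log2 0.29 in maxillary and -0.14 in mandibular, and those of Csf1r 0.30 and 0.13. In P1 maxillary the macrophage-like cells with shared barcodes (76 cells) had 152 CPM and the others (226 cells) 148 CPM. A Tnfrsf11a UMI was found in 49.5%, 58.1%, 40.1% and 51.3% of the macrophage-like cells. Erythroid-like cells had no more than 0.168 CPM.

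The macrophage-like cells were not uniform in Tnfrsf11a. Macrophage-like clusters with C1q genes, Pf4 or Mrc1 among their leading genes, which mark resident tissue macrophages, had between 90.9 and 175 CPM in the 4 libraries. Clusters led by genes of monocytes were lower: 9.11 CPM in E15.5 maxillary leukocyte.0 (led by Lyz2, Plac8 and Hp), 18.0 CPM in E15.5 mandibular leukocyte.0 (Lyz2, Hp and Gda) and 19.7 CPM in P1 mandibular leukocyte.4 (Lyz2, Ccr2 and Ly6c2). Csf1r in those 3 clusters was 272, 244 and 219 CPM, each below the level of its class as a whole but not by as much as Tnfrsf11a. The separation was not complete, as 137 CPM of Tnfrsf11a was found in E15.5 mandibular leukocyte.7 and 156 CPM in P1 maxillary leukocyte.5, which were also led by Ccr2, Lyz2 or Cd52. Clusters led by Cd74 and H2-Aa, genes of antigen presentation, had 102 CPM in E15.5 mandibular and 15.3 CPM in P1 maxillary. These clusters held 17 to 77 cells each.

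Tnfrsf11a was also detected outside the macrophage lineage. At P1, cluster 6 of maxillary had 22.1 CPM [17.5, 27.5] (80 UMIs) and the follicle-like cells of mandibular 30.8 CPM [20.3, 44.8] (27 UMIs), with a UMI in 6.84% and 13.5% of the cells. The 9 macrophage markers summed to 14.9 and 27.4 CPM in these cells, against 13777 and 15918 CPM in macrophage-like cells, and Csf1r was at 1.38 CPM in maxillary and 0 in mandibular. In P1 maxillary the Tnfrsf11a level was 28.0 CPM in the cells of cluster 6 with shared barcodes and 3.42 CPM in the others, the reverse of Tnfsf11. Endothelium-like cells had 12.7, 3.41, 14.3 and 12.6 CPM, with E15.5 mandibular lowest.

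Csf1 (ENSMUSG00000014599, chr3:107741048-107760469, minus strand), the growth factor for these receivers, came from a broad range of stromal cells. Its level in mesenchyme-like cells was 28.0, 24.3, 23.9 and 28.7 CPM. Stage ratios there were log2 -0.23 [-0.33, -0.13] in maxillary and 0.24 [0.12, 0.36] in mandibular. The mandibular ratio was -0.18 at the finer clustering and -0.017 with each cell named by its own markers, so its sign is not settled. Osteoblast-like cells had 28.6, 27.4 and 48.6 CPM, pericyte-like cells 22.7, 27.6, 47.2 and 42.6 CPM, and at P1 cluster 6 of maxillary had 32.6 CPM and the follicle-like cells of mandibular 42.2 CPM. In each library the intervals of the highest stromal classes overlapped, so no single one led.

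Csf1 was low in some classes, with 1.22 and 1.39 CPM in osteoblast- or odontoblast-like and 0.818 and 0.372 CPM in ameloblast-like cells of P1. Papilla-like cells had 8.26, 7.45, 23.9 and 22.2 CPM, which is 2.90-fold higher at P1 in maxillary (log2 1.53 [0.87, 2.30]) and 2.97-fold higher in mandibular (1.57 [0.52, 2.89]). Csf1 of the papilla thus lay beside its Tnfrsf11b on the higher side at P1. Epithelium-like cells had 4.09, 2.72, 2.54 and 4.09 CPM. Other leukocyte-like cells of P1 maxillary had 92.7 CPM, but from 21 UMIs, 16 of them in 3 cells.

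Acp5 (ENSMUSG00000001348, chr9:22126727-22135711, minus strand), tartrate-resistant acid phosphatase, and Ctsk (ENSMUSG00000028111, chr3:95499256-95509362, plus strand), the collagen-degrading protease cathepsin K, are the classical products of the mature osteoclast. Osteoclast-like clusters were found at E15.5, with 47 cells in maxillary and 26 in mandibular and median depths of 21181 and 29855 UMIs. Their own 9 markers, which exclude Acp5 and Ctsk, were at 10 CPM or more for 7 of 9 in maxillary and 9 of 9 in mandibular. Acp5 had 1647 CPM [1568, 1728] in maxillary and 3512 CPM [3376, 3652] in mandibular, 57.2-fold [46.0, 72.1] and 114-fold [91.9, 144] above the macrophage-like cells. Ctsk had 2297 CPM [2205, 2393] and 5538 CPM [5367, 5713]. With doublets kept, the E15.5 mandibular class grew to 57 cells, 31 of them marked as doublets, and Acp5 had 2057 CPM and Ctsk 3301 CPM. An Acp5 UMI was found in 100% of both sets of cells, and a Ctsk UMI in 72.3% and 100%.

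The osteoclast-like cells kept the receptors. Tnfrsf11a had 203 CPM [176, 232] in maxillary and 234 CPM [200, 273] in mandibular, 1.65-fold [1.38, 1.96] and 2.06-fold [1.70, 2.49] above macrophage-like cells. Csf1r had 208 and 378 CPM, below the 591 and 643 CPM of macrophage-like cells. From 0.508% and 0.398% of the cells, osteoclast-like cells gave 26.8% and 29.2% of all Tnfrsf11a UMIs and 67.2% and 88.5% of all Acp5 UMIs. Without the UMIs of the 3 highest cells, Acp5 still had 1105 and 2425 CPM and Ctsk 1471 and 3611 CPM, so the levels do not rest on single cells.

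**Figure D4:**
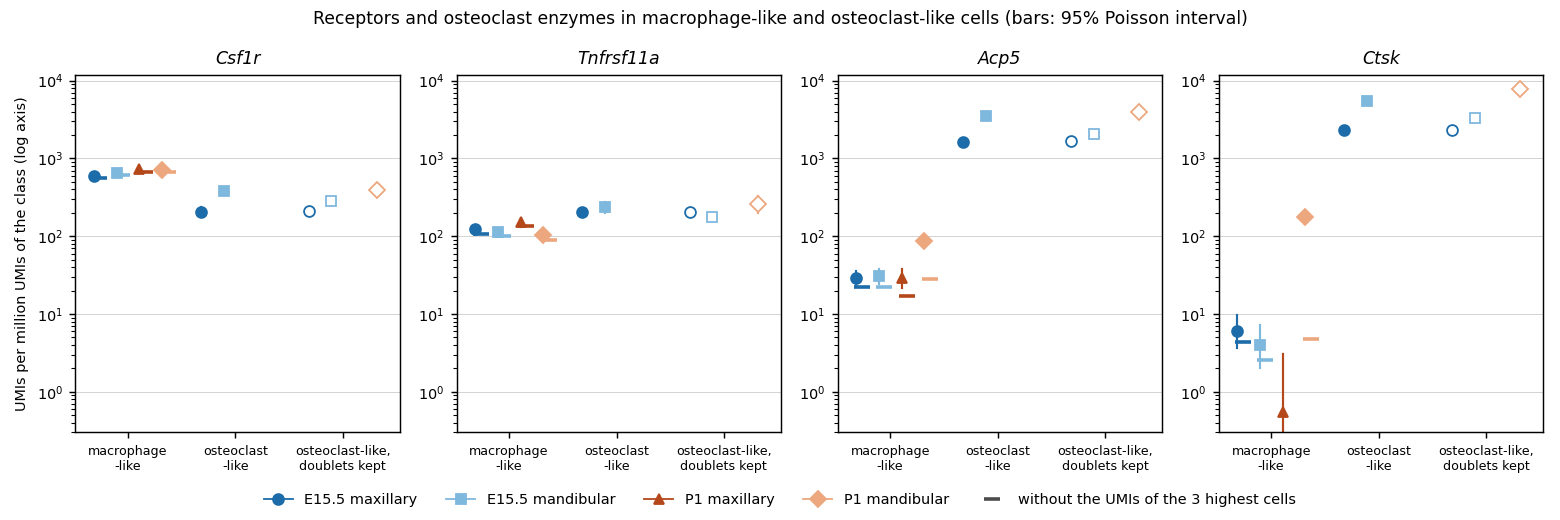
Levels of Csf1r, Tnfrsf11a, Acp5 and Ctsk (UMIs per 1000000 UMIs of the class, log axis) are plotted in macrophage-like cells, in osteoclast-like cells and in the osteoclast-like cells found when doublets are kept, with 95% Poisson bars and dashes for the value without the UMIs of the 3 highest cells. Acp5 is at 1647 and 3512 CPM in the osteoclast-like cells of E15.5, and the Ctsk level of the P1 mandibular macrophage-like cells, 178 CPM, drops to 4.83 CPM without the 3 highest cells.

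No osteoclast-like cluster was found at P1, and doublet removal bears on this. Cells with UMIs of at least 3 of the 9 osteoclast markers numbered 46 and 38 at E15.5 and 7 and 13 at P1 after doublet removal, and 55, 52, 22 and 32 before it. Of those before removal, 16.4%, 26.9%, 68.2% and 59.4% were removed as doublets, against 8.06%, 5.53%, 13.6% and 8.09% of all cells. Of those left at E15.5, 11 in maxillary and 12 in mandibular lay outside the osteoclast-like clusters, with 1045 and 11.6 CPM of Acp5. An Acp5 UMI was found in 41 of 46 and 28 of 38 cells at E15.5, and in 2 of 7 and 5 of 13 at P1. The counts are therefore not counts of osteoclasts alone. With doublets kept, P1 mandibular had 15 osteoclast-like cells, 14 of them marked as doublets, and P1 maxillary had none. The 15 cells had 4012 CPM of Acp5, 7746 CPM of Ctsk and 259 CPM of Tnfrsf11a. Osteoclasts hold several nuclei and much RNA, so a count of such cells after doublet removal cannot be read as their number in the tissue. Whole-library Acp5, with no naming, was 26.0, 36.2, 3.78 and 9.22 CPM, and with doublets kept or other cell filters it ranged up to 6.99 CPM in P1 maxillary and 17.6 CPM in P1 mandibular.

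Acp5 in macrophage-like cells was 28.8, 30.8, 28.9 and 88.2 CPM, the last from 201 UMIs of which 119 lay in 1 cell. Without the 3 highest cells the P1 mandibular value was 28.1 CPM. Ctsk in macrophage-like cells was 6.09, 4.03, 0.545 and 178 CPM, and 390 of the 406 UMIs behind the last value lay in 1 cell. The other leukocyte-like cells of E15.5 maxillary, at 273 CPM of Acp5 and 659 CPM of Ctsk, also rested on few cells, with 2.30 and 20.7 CPM left after the 3 highest were taken out.

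Unlike Acp5, Ctsk was also a gene of the mesenchyme. Mesenchyme-like cells had 133, 120, 86.0 and 126 CPM, with a UMI in 59.3%, 65.6%, 42.4% and 63.1% of the cells against no more than 3.33% of erythroid-like cells. They gave 69.6% and 43.1% of all Ctsk UMIs at E15.5 and 90.1% and 90.4% at P1. In P1 maxillary the mesenchyme-like cells with shared barcodes had 79.6 CPM of Ctsk and the others 124 CPM. Acp5 in the same cells was 3.60, 5.06, 2.96 and 5.37 CPM. The highest mesenchymal level of Ctsk was 415 CPM [393, 439] in the tendon-like cells of P1 mandibular, where those of E15.5 had 154 and 121 CPM. At P1, cluster 6 of maxillary had 109 CPM and the follicle-like cells of mandibular 108 CPM, and papilla-like cells had 46.8, 51.1, 71.1 and 87.7 CPM.

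Because Acp5 and Ctsk were both highest in the osteoclast-like cells, the 250 bases before their annotated starts are shown with the motifs of known regulators of the osteoclast genes. The sequences are from RefSeq on GRCm38.p6, which has the coordinates of mm10, and 7 of the 9 genes had an entry. The M-box TCATGTG, bound by MITF, was searched on both strands. The Ets core GAGGAA, bound by PU.1, was searched the same way, and a match to either on the other strand appears below as its reverse complement. Of 32851 windows of the same length, 3.25% held the first and 23.3% the second. The window of Ctsk (chr3:95498960-95499209, plus strand) held the second motif in 2 places and the first in none. Of 3 windows for Acp5, for alternative starts, 1 held the M-box (chr9:22130599-22130848, minus strand). Capitals mark the matches, each sequence runs 5' to 3', and a match is a description of these letters and not a site.
Ctsk: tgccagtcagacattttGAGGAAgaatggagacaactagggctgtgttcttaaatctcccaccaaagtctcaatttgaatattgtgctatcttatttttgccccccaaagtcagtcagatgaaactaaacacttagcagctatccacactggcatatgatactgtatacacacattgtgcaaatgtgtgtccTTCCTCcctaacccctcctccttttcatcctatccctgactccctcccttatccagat
Acp5: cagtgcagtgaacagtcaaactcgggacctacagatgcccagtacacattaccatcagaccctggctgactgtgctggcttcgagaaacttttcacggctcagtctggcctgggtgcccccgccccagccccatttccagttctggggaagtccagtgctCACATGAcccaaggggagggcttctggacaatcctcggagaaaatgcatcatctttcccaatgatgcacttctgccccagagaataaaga

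Pthlh (ENSMUSG00000048776, chr6:147252101-147264183, minus strand), the PTHrP ligand, was expressed by dental mesenchyme and by part of the epithelium. Papilla-like cells had 83.5 CPM [71.8, 96.5] in E15.5 maxillary and 94.8 CPM [76.1, 117] in E15.5 mandibular. At P1 they had 67.0 CPM [64.5, 69.6] in maxillary and 26.8 CPM [25.0, 28.7] in mandibular, with P1 mandibular apart from the other 3. The 60 papilla-like cells of P1 maxillary with barcodes of their own had 25.8 CPM [8.37, 60.1] from 5 UMIs, an interval that holds the P1 mandibular level. So the difference between the P1 levels rests on the shared barcodes. Within P1 maxillary, cluster 10 had 123 CPM [113, 133] of Pthlh, 636 of the 2603 UMIs of the class. At P1, cluster 6 of maxillary had 96.6 CPM [86.8, 107] and the follicle-like cells of mandibular 116 CPM [94.8, 141], the highest levels among the named classes of their libraries, though not among single clusters. A Pthlh UMI was found in 39.6%, 43.2%, 41.7% and 22.7% of papilla-like cells and in no more than 0.593% of erythroid-like cells. The median depths of the papilla-like cells were 8292, 11202, 12460 and 13030 UMIs, and after thinning their shares were 16.6%, 21.2%, 13.4% and 6.25%. With the shared barcodes in P1 maxillary, P1 mandibular was lowest by level, by share and by thinned share.

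Pthlh was low in some classes of P1. Osteoblast- or odontoblast-like cells had 4.12 and 5.55 CPM and ameloblast-like cells 0.35 and 0.25 CPM. Within the epithelium of P1 mandibular it was led by cluster 15, an other epithelium-like cluster with 129 CPM (249 cells, led by Isl1 and Fat2), and the stellate reticulum- or intermedium-like cells had 16.4 and 13.5 CPM. Of the E15.5 libraries, E15.5 maxillary had Pthlh also in osteoblast-like (50.03 CPM) and tendon-like cells (57.0 CPM), where E15.5 mandibular had 5.94 and 0.426 CPM. By cluster, the osteoblast-like cells of E15.5 maxillary had 74.5 and 16.7 CPM (clusters 4 and 10), and those of E15.5 mandibular 11.8 CPM in cluster 13 and 2.21 CPM in cluster 7. The E15.5 mandibular value of epithelium-like cells, 81.3 CPM, rests on 124 cells, with 39 of 209 UMIs in 1 of them and 49.4 CPM without the 3 highest.

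Pthlh in mesenchyme-like cells stood higher in maxillary than in mandibular at both stages, though at P1 the size rests on the shared barcodes. Mesenchyme-like cells had 25.5 and 12.6 CPM in maxillary and mandibular at E15.5. The P1 values were 56.9 and 19.5 CPM. The maxillary level was 2.03-fold higher at E15.5 (log2 1.02 [0.87, 1.18]) and 2.92-fold higher at P1 (1.54 [1.45, 1.64]). At E15.5 papilla-like cells did not share the difference (-0.18) and other mesenchyme-like cells had 0.30, while at P1 the ratios were 1.32 and 1.98. In P1 maxillary, mesenchyme-like cells with shared barcodes had 62.4 CPM and the others 24.4 CPM, and without the shared barcodes the jaw ratio at P1 was 0.23. A single P1 maxillary cluster of other mesenchyme-like cells, cluster 25, had 222 CPM [203, 241] in 227 cells. In epithelium-like cells the jaws stood the other way round, with log2 ratios of -1.88 at E15.5 and -1.15 at P1. At P1 this too rests on the shared barcodes, since the epithelium-like cells of P1 maxillary with barcodes of their own had 22.2 CPM [16.6, 29.2] against 22.9 CPM in P1 mandibular. The E15.5 ratio rests on the mandibular level, which was lower without its highest cells, as given above. Over a whole library the levels were 18.5, 9.54, 37.9 and 17.2 CPM, and 13.6 CPM in P1 maxillary without the shared barcodes.

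Between the stages, Pthlh in mesenchyme-like cells was higher at P1 by log2 1.16 [1.07, 1.24] in maxillary and 0.64 [0.47, 0.80] in mandibular. Within papilla-like cells it was lower at P1, by -0.32 and -1.82. As named here, papilla-like cells made up more of the mesenchyme-like cells at P1, but no P1 maxillary cluster was papilla-like without the shared barcodes. The part of papilla-like cells in the mesenchymal difference was not tested. Without the shared barcodes the maxillary difference in mesenchyme-like cells was -0.16, of the other sign. In epithelium-like cells the log2 ratio of Pthlh at P1 over E15.5 was -1.83 in mandibular and -1.10 in maxillary with the shared barcodes. The mandibular ratio rests on the E15.5 mandibular level, which was lower without its highest cells, as given above. The P1 maxillary epithelium-like cells with shared barcodes had 8.78 CPM and the others 22.2 CPM, against 22.1 CPM in E15.5 maxillary, so the maxillary difference was not seen in cells with barcodes of their own.

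Pth1r (ENSMUSG00000032492, chr9:110722085-110747145, minus strand), the receptor for PTHrP and parathyroid hormone, was a mesenchymal transcript. Mesenchyme-like cells had 61.1, 98.6, 41.6 and 41.8 CPM, and epithelium-like cells 2.36, 1.17, 0.399 and 1.14 CPM, against a background of 1.84, 1.93, 2.30 and 2.80 CPM in erythroid-like cells. No epithelial value stood above its background beyond counting error. Osteoblast-like cells had 111 CPM [104, 118] in E15.5 maxillary, 311 CPM [299, 324] in E15.5 mandibular and 114 CPM [103, 127] in P1 mandibular. A UMI was found in 40.9%, 72.2% and 45.3% of them. The E15.5 mandibular class was made of cluster 13, with 177 CPM of Pth1r, and cluster 7 (led by Col2a1, Ibsp and Hapln1), with 397 CPM. As chondrocyte markers lead cluster 7, the level of cluster 13 is the one to set beside the other libraries. Chondrocyte markers summed to 835 CPM in that class, against 85.9 and 123 CPM in the osteoblast-like cells of E15.5 maxillary and P1 mandibular, and their part in the level was not tested.

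Chondrocyte-like cells, in which PTH1R restrains maturation, had 893 CPM [813, 979] of Pth1r in E15.5 maxillary from only 19 cells, and 72.8 CPM in the 905 cells of P1 maxillary. Papilla-like cells had 26.6, 23.4, 37.6 and 37.9 CPM, cluster 6 of P1 maxillary 86.2 CPM, the follicle-like cells of P1 mandibular 55.8 CPM, and osteoblast- or odontoblast-like cells of P1 37.4 and 29.8 CPM. The papilla-like cells, with much Pthlh, thus also had Pth1r, and the osteoblast-like cells had Pth1r beside Tnfsf11. Within E15.5 mandibular the highest levels of these genes lay in different clusters, as cluster 13 had 50.2 CPM of Tnfsf11 and cluster 7 had 6.63 CPM. Between the stages Pth1r in mesenchyme-like cells was lower at P1, by log2 -0.56 in maxillary and -1.24 in mandibular, while papilla-like cells had 0.50 and 0.69. Of the 3292 Pth1r UMIs of the E15.5 mandibular mesenchyme-like cells, 1794 came from cluster 7, and other mesenchyme-like cells of mandibular had 39.7 CPM of Pth1r at the embryonic and 42.0 CPM at the postnatal stage.

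Other genes of the pathways, 46 in 4 lists, place the 9 among their partners. Of 14 receptors, adaptors and transcription factors downstream of RANK and CSF1R, 13 reached 50 CPM in some class. Nfatc1, the master transcription factor of osteoclasts, was highest in osteoclast-like cells (413 and 583 CPM), as were Mitf at 304 and 349 CPM and Traf6 at 62.8 CPM in E15.5 mandibular. Spi1, the gene for PU.1, had 532 and 578 CPM there, and Fcer1g and Trem2, of the co-stimulatory receptor complexes, were highest in macrophage-like cells at 2492 and 399 CPM. In the stage comparisons 3 of the 14 were tested in mesenchyme-like, 4 in epithelium-like and 8 in macrophage-like cells, and the 1 call was Mitf, higher at P1 in epithelium-like cells (12.5, 11.7, 67.9 and 98.8 CPM), as were 7.12% of all genes tested there.

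Of 11 effectors of the osteoclast, 8 were highest in osteoclast-like cells, among them Atp6v0d2, a subunit of the proton pump, with 919 and 1571 CPM, Mmp9 with 933 and 2647 CPM, and Dcstamp, needed for cell fusion, with 155 and 254 CPM. These 3, and Ocstamp and Siglec15 of the 8, were also among the markers that named the cells, so their place there is no finding. The markers Calcr and Itgb3 were highest in muscle- and glia-like cells of P1 mandibular. Of the 8, only Tcirg1, Clcn7 and Ostm1 were not markers. Tcirg1 and Clcn7, the pump and chloride channel of acid secretion, had 174 and 262 CPM and 31.8 and 62.8 CPM, and Ostm1 had 37.7 CPM in E15.5 mandibular. Car2, carbonic anhydrase 2, was called higher at P1 in mesenchyme-like cells, with 25.5, 14.4, 282 and 299 CPM, as were 5.67% of all genes tested there, and was highest in osteoblast- or odontoblast-like cells at 655 and 579 CPM. It was the only effector tested in that comparison, and no effector was tested in epithelium- or macrophage-like cells or between the jaws.

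Of 13 other ligands and stromal regulators, 9 reached 50 CPM. Il34, the second ligand of CSF1R, had 29.9, 24.2, 66.6 and 58.6 CPM in pericyte-like cells, beside their Csf1. Vdr, the vitamin D receptor, had 4.32, 24.8 and 56.1 CPM in the osteoblast-like cells of E15.5 maxillary, E15.5 mandibular and P1 mandibular. Ccl9, a chemokine known from osteoclasts, had 422 and 603 CPM in osteoclast-like cells and 132, 158, 88.9 and 123 CPM in macrophage-like cells. Of 8 genes of the PTHrP axis, 6 reached 50 CPM, among them the G protein genes Gnas, Gnaq and Gna11, while Pth, the gene for parathyroid hormone itself, had 2 UMIs among the mesenchyme-like cells of the 4 libraries. None of the genes of these 2 lists was called in any comparison, in which 2 and 3 or 4 of them were tested and between 0.287% and 7.12% of all genes were called in either stage direction, so nothing is read from this.

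The genes whose levels varied most like each of the 9 were found by Pearson's r of log2(CPM + 1) over 58 combinations of class and library with at least 50 cells, among 13153 genes. The points share libraries and depth, so the values are a description. Tnfsf11 was most like Podnl1 (0.81), Sfrp4 (0.80) and Ptgfr (0.78), and Tnfrsf11b most like Bmp4 (0.77), Bambi (0.75) and Slc39a14 (0.74). Tnfrsf11a was most like Slc14a1 (0.86), Cx3cr1 and Stab1 (both 0.85), and Csf1r most like Ccl3 and Ifi207 (both 0.96) and Cd48 (0.95). Csf1 was most like Gm12216 (0.83), Tbc1d2b (0.82) and Gm44148 (0.80). Pthlh was most like Kif26b (0.85), Smoc2 and Ptpru (both 0.82), and Pth1r most like Ddr2 (0.93), Twist1 (0.92) and Lhx8 (0.91). Ctsk was most like Col6a2, Col6a3 and Twist1 (all 0.85), and Acp5 most like Ptk2b (0.74), Zfp992 and Ifi30 (both 0.73). The osteoclast-like classes held fewer than 50 cells and were not among the points.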

How the data were processed

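Single cells of the maxillary and mandibular molar at E15.5 and P1 were profiled in 4 droplet libraries, 1 per stage and jaw. The authors deposited raw UMI counts per gene and barcode, not normalized, as called by Cell Ranger on mm10 per the labels and the study's methods, and the later filters of the study are not applied in them. No other columns of values were used. Libraries were grouped by stage and jaw from the labels, and p-values were not computed, since each stage and jaw holds 1 library and no model with the jaws or stages as replicates was fitted.

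Barcodes with at least 1000 UMIs were kept, and barcodes of the P1 mandibular library that also occur in the P1 maxillary library were dropped. Doublets were ranked with Scrublet (scanpy 1.11.5), and the highest-ranked 0.8% for every 1000 barcodes were taken out (812, 382, 2323 and 819 for E15.5 maxillary, E15.5 mandibular, P1 maxillary and P1 mandibular). Each library was clustered on its own from 2000 variable genes without the 9 genes and the gene lists (40 principal components, 15 neighbours, Leiden resolution 1, leidenalg 0.10.2, igraph 0.11.9), and leukocyte-like cells again with 20 components. A cluster took the name of the marker list, of 20, with the highest mean marker position among clusters if this was at least 0.55 (0.4 for leukocytes), with at least 3 markers detected and at most 1 marker fewer among the 10 leading genes than any rival list. Some clusters thus kept a name where a rival list had 1 marker more. These were E15.5 mandibular cluster 7 and, in P1 maxillary, clusters 6, 8 (named ameloblast-like) and 10 (named papilla-like). The naming thresholds were chosen once clusters had been looked at. Clusters without a name held 630, 1012, 750 and 1211 cells. Shares were also computed with each cell thinned to 2000 UMIs (seed 0). Intervals are exact Poisson, Clopper-Pearson or binomial 95% intervals (scipy 1.17.1, numpy 2.4.6, pandas 2.3.3, Python 3.11.15), a count of 0 was set to a limit of 3 counts, and figures were drawn with matplotlib 3.10.9. The calling of genes was tested on simulated data.

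The members, gene lists and markers were chosen with earlier results of these data known. Named beside the 9 genes are list genes at 50 CPM or more in a class or needed as background, the leading genes of clusters, and the 3 genes most like each member. Alternatives were a minimum of 2000 UMIs, doublets kept, a filter at 3 median absolute deviations, Leiden resolution 2, cells named singly, unweighted cell means, shared barcodes kept or left out, and other call thresholds (10 CPM, 1.5-fold).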

Additional observations from a re-analysis of the deposited data

Results flagged for a closer look

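Some differences had opposite signs in groups set side by side, and none of these contrasts was tested. In mesenchyme-like cells the log2 ratio of Tnfsf11 in maxillary over mandibular was 0.45 (E15.5) and -0.40 (P1). Csf1 had jaw ratios of 0.21 (E15.5) and -0.26 (P1), and its ratio of P1 over E15.5 was -0.23 in maxillary and 0.24 in mandibular. Ctsk had jaw ratios of 0.14 (E15.5) and -0.55 (P1), and stage ratios of -0.62 in maxillary and 0.062 in mandibular. Without the shared barcodes the P1 jaw ratios were 1.30 for Tnfsf11 and 0.057 for Ctsk, of the same sign as the E15.5 ratios. The E15.5 jaw ratio of Csf1 was -0.054 with cells named singly, -0.00754 at Leiden resolution 2 and -0.020 with clusters led by rival markers kept in their class, and the mandibular stage ratio of Ctsk was -0.031 with doublets kept, -0.043 with shared barcodes kept in P1 mandibular and -0.039 at Leiden resolution 2, so these opposite signs are not stable. In macrophage-like cells the stage ratio of Ctsk was -3.48 in maxillary and 5.47 in mandibular, where 390 of the 406 P1 mandibular UMIs lay in 1 cell.

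Levels above those of every named class of at least 50 cells in the same library were found in clusters left without a name, which no comparison used. Csf1 had 137 CPM in 73 cells of P1 mandibular led by Il1b, Clec4d and Srgn (leukocyte.0). Acp5 had 128 CPM in cluster 8 of P1 mandibular, where 94 of its UMIs lay in 1 cell.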

How the results depend on the processing

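No fit with the jaws or stages as pairs was run. Of the log2 ratios, 38 moved and 4 reversed with doublets kept, 29 and 7 with shared barcodes left out of P1 maxillary, 34 and 2 with unweighted means, 17 and 4 with cells named singly, 16 and 1 with the stricter filter, 7 and 3 at Leiden resolution 2, 4 and 2 with shared barcodes kept in P1 mandibular, and none of 135 with a minimum of 2000 UMIs, which moved 25 of 261 levels. Each value below is the alternative one, as log2 ratios unless a unit is given, and the cause of a change was not tested beyond what the setting itself removes.

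With the shared barcodes left out of P1 maxillary, for P1 over E15.5 in maxillary, mesenchyme-like Tnfsf11 was -0.68, Tnfrsf11b 0.45 and Pthlh -0.16, and epithelium-like Tnfrsf11a 0.13. For maxillary over mandibular at P1, Tnfsf11 was 1.30, Tnfrsf11b -0.86, Pthlh 0.23 and Ctsk 0.057. For mesenchyme over epithelium in P1 maxillary, Tnfrsf11b was 1.42, Tnfrsf11a -1.78 and Pth1r at least 4.50, and the Tnfsf11 share in mesenchyme-like cells was 45.7%. Calls at P1 were 9 higher and 5 lower in mesenchyme-, 64 and 19 in epithelium-, and 3 and 1 in macrophage-like cells, with 55 higher in maxillary. With shared barcodes kept in P1 mandibular instead, the Pthlh jaw ratio at P1 was 1.18, its ratio of mesenchyme over epithelium in P1 mandibular 0.40, and the Ctsk stage ratio in mandibular mesenchyme -0.043.

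With doublets kept, when no E15.5 mandibular cluster was osteoblast-like, the mandibular stage ratios in mesenchyme-like cells were -0.048 for Tnfsf11, 2.40 for Tnfrsf11b and -0.031 for Ctsk. The jaw ratio was 1.38 for Pthlh at P1 and 0.18 for Pth1r at E15.5. Macrophage over mesenchyme was 8.28 in E15.5 maxillary and 8.83 in P1 maxillary for Csf1r, and 0.20 in E15.5 maxillary and -4.49 in P1 mandibular for Ctsk. Mesenchyme over epithelium for Pth1r was 2.69 in E15.5 maxillary, 4.07 in P1 maxillary and 3.86 in P1 mandibular. The Tnfsf11 share was 51.7% in E15.5 mandibular and 11.6% in P1 maxillary, and 22 genes were called lower at P1 in macrophage-like cells and 21 lower in maxillary.

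With each cell named by its own markers, Tnfrsf11b was 1.46 for P1 over E15.5 in mandibular and the E15.5 mandibular Tnfsf11 share 56.2%. Csf1 was -0.017 for the same stage ratio and -0.054 for the jaws at E15.5, Csf1r -0.00120 for P1 over E15.5 in mandibular macrophage-like cells, and Ctsk -4.496 for macrophage over mesenchyme in P1 mandibular. This last ratio was also -4.496 with the filter at 3 median absolute deviations. With Leiden resolution 2, Pthlh was 1.43 between the jaws at P1, Csf1 -0.18 for the mandibular stages and -0.00754 for the jaws at E15.5, and Ctsk -0.039 for the mandibular stages. With clusters led by rival markers kept in their class, chosen after seeing the data, Tnfrsf11b was 1.37 for the mandibular stages, the E15.5 mandibular share 54.6% and Csf1 -0.020 for the jaws at E15.5.

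With unweighted means over cells, the stage ratios were -1.71 and -1.18 for Tnfsf11 in maxillary and mandibular and 1.39 for Tnfrsf11b in maxillary, the Pthlh jaw ratios 0.80 at E15.5 and 1.23 at P1, and Pth1r 5.30 for mesenchyme over epithelium in P1 maxillary. The Tnfsf11 shares were 68.4%, 72.2%, 20.1% and 23.0%. Macrophage over mesenchyme was 0.20 for Csf1 in E15.5 mandibular and -0.22 for Ctsk in P1 mandibular. With a minimum of 10 CPM, 464 genes were called higher and 169 lower at P1 in mesenchyme-, 530 and 376 in epithelium- and 45 and 36 in macrophage-like cells, and 67 and 46 between the jaws. At 1.5-fold these were 364 and 209, 494 and 293, 51 and 70, and 71 and 48.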

Other observations

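Further genes of the 4 lists were highest in various classes. Sema3a, a secreted protein that restrains osteoclast formation, was highest in the chondrocyte-like cells of P1 maxillary at 707 CPM. Efnb2 and Ephb4, the ephrin ligand and receptor pair of vessels and bone, were highest in endothelium-like cells at 213 and 111 CPM. Cxcl12, a chemokine for leukocytes, had 142, 63.3 and 279 CPM in the osteoblast-like cells of E15.5 maxillary, E15.5 mandibular and P1 mandibular, and was highest in other mesenchyme-like cells at 366 CPM. Ihh, the hedgehog ligand that acts with PTHrP in the growth plate, was highest in the 19 chondrocyte-like cells of E15.5 maxillary at 64.5 CPM, beside their Pth1r. Lgr4, a further receptor for RANKL, was highest in other epithelium-like cells of P1 maxillary at 201 CPM, where no Tnfsf11 UMI was counted.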
